A study of Homo sapiens with 9 samples.

Results

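The genes described here are 39 genes of glycolysis and of the cellular response to low oxygen, given as a list of symbols and matched through the GENCODE v44 annotation to 39 of the 60649 gene identifiers in the count table. They fall into 4 roles, which are 18 genes of glucose uptake and glycolytic enzymes, 5 genes of flux control and lactate export, 5 subunits and prolyl hydroxylases of the hypoxia-inducible factors (HIF), and 11 HIF target genes outside glycolysis. Of the 39 genes, 38 had enough counts to be tested, while LDHB, the other main subunit of lactate dehydrogenase, had between 2 and 11 counts in each library and was not tested. The rule for the list is a set of symbols and uses no measured value, but the list was proposed with earlier results of these data known.

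RNA sequencing was performed on OVCAR5, a long-established line of human ovarian cancer cells, with 3 libraries in each of the groups labelled NC, SM2 and SM4. The series' labels give NC as the control and both SM2 and SM4 as knockdowns of METTL3, the catalytic subunit of the enzyme that writes N6-methyladenosine on RNA, made with short hairpin RNAs. The cells of the study were stable lines, transduced with lentivirus, selected with puromycin and grown in RPMI-1640 medium, and the labels do not say which hairpin belongs to SM2 or to SM4, nor that the 3 libraries of a group came from separate cultures, so p-values measure only the spread between these libraries. The labels call the control parental cells, the methods describe a control hairpin, and a source field gives the libraries labelled SM4 other OVCAR names although their cell line field reads OVCAR5. No library was labelled as grown in low oxygen.

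Levels are given in CPM, the share of a library's counts that fell on a gene, as scaled counts with the TMM factors of edgeR. Changes are log2 fold changes with their standard error (SE), and adjusted p-values are from the quasi-likelihood test of edgeR with Benjamini-Hochberg adjustment over the 19674 genes tested. A gene is called, and is said to rise or fall, at an adjusted p below 0.05. The comparisons of SM2 and of SM4 with NC share the 3 NC libraries, so their values are set side by side only, and SM4 against SM2 was tested directly.

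METTL3 stood at 36.2, 34.4 and 36.6 CPM in the libraries labelled NC, 37.04, 39.8 and 39.99 in SM2 and 60.5, 57.5 and 62.4 in SM4. For SM2 relative to NC the log2 fold change of METTL3 was 0.12 ± 0.0549 (SE), adjusted p = 0.12, and for SM4 relative to NC it was 0.75 ± 0.0539 (SE), adjusted p = 2.21e-09. Every SM4 library thus lay above every NC library, and the SM4 libraries also lay above every SM2 library (0.63 ± 0.0538 (SE), adjusted p = 7.45e-08, for SM4 relative to SM2). The messenger RNA of the targeted gene was thus lowest in the libraries labelled NC and SM2 and highest in those labelled SM4, which goes against the labels of NC and SM4, and the sources used here conflict on which libraries are the control. Groups are therefore called by their labels, and "NC", "SM2" and "SM4" below mean the libraries with those labels. Rises and falls below are differences between labelled groups and are not read as effects of a knockdown. If the libraries labelled SM4 were the control, differences from the control would be SM4 against NC and SM4 against SM2 with the sign turned. The paper's supplementary values of METTL3 and LOXL2, for each hairpin relative to the control hairpin, equal these turned values after rounding. For these genes the paper's values thus take SM4 as the control and NC and SM2 as the hairpins, against the series' labels. By those values, SM2 against NC compares the hairpins with each other and neither with a control. METTL3 shares exon bases with TOX4 on the opposite strand, which did not pass the test in any comparison.

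Library totals lay between 44103272 and 63693728 counts, and replicates of a group correlated with r of 0.991 to 0.993 across genes. Over all genes, 4173 were called in SM4 against NC and 5418 without SM2 replicate 3, while 2518 were called in SM4 against SM2 and 1574 without SM4 replicate 1. The 5 epithelial markers KRT8, KRT18, KRT19, EPCAM and CDH1 summed to 9905 to 10280 CPM in NC, 11286 to 11781 in SM2 and 10837 to 11513 in SM4. Of 15 markers of fibroblasts, leukocytes and endothelial cells, 11 lay under 0.5 CPM in every library, and COL1A2, DCN, PTPRC, CD3E, KDR and CDH5 reached at most 0.27 CPM. The exceptions were COL1A1, LYZ, PECAM1 and CLDN5. The fibroblast list summed to 21.3 to 26.5 CPM across all libraries, the leukocyte list to 35.4 to 38.7 in NC, 50.3 to 53.95 in SM2 and 31.3 to 33.7 in SM4, and the endothelial list to 6.11 to 7.004, 8.81 to 9.96 and 13.8 to 16.4. The part of these differences in the results below was not tested.

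Glycolysis converts glucose to pyruvate in the cytosol, and lactate dehydrogenase turns pyruvate into lactate while restoring the NAD+ that the pathway needs. HIF is a pair of a regulated alpha subunit (HIF1A or EPAS1) and a constant beta subunit (ARNT). In the presence of oxygen the prolyl hydroxylases mark the alpha subunit for destruction, so HIF is controlled largely at the level of protein, and when oxygen is scarce it binds short DNA elements and raises the transcription of glucose transporters, glycolytic enzymes and genes such as VEGFA. Cancer cells often run glycolysis at a high rate even with oxygen present.

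To show the DNA element that many glycolytic and HIF target genes are known to carry, a stretch before the start site is printed for 3 genes whose levels took different courses, which are LDHA (fell in SM2 and in SM4), ALDOC (rose in SM2 and was not called in SM4) and BHLHE40 (rose in SM2 and fell in SM4). They are reference sequence from RefSeq (GRCh38.p14), 5′ to 3′ on the strand of the gene, and lie before the gene in both RefSeq and GENCODE. Capitals mark the HIF core letters ACGTG or GCGTG read on either strand. Each stretch is the 120 bases before the gene picked for holding the most of these letters, so it is not a typical stretch of its promoter. The LDHA stretch is chr11:18394376-18394495 on the plus strand, that of ALDOC chr17:28577026-28577145 on the minus strand and that of BHLHE40 chr3:4979187-4979306 on the plus strand.
LDHA: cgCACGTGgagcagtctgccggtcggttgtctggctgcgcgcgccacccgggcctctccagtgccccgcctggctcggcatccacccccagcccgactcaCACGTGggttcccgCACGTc
ALDOC: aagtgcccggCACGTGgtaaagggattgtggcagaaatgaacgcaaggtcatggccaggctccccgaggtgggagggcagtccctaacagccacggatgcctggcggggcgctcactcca
BHLHE40: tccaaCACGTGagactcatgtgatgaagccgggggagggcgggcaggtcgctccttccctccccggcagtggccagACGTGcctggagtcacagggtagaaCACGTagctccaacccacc

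The letters CACGTG hold ACGTG on both strands, so each such stretch counts as 2 matches, and within the printed bases LDHA held 5 matches of ACGTG, BHLHE40 4 and ALDOC 2. In windows from 250 bases before to 50 bases after the RefSeq start site, 25 of the 36 genes with an entry (69.4%) held ACGTG or GCGTG on either strand, against 48.4% of the 35114 promoters in the table. CACGTG stood in 6 of the 36 (16.7%), against 7.26% of all. The shares for ACGTG or GCGTG were 13 of 18 for the glycolytic genes and 6 of 8 for the HIF targets. A match is a description of letters and not a bound site. The background takes every promoter in the table and was not matched to these genes in level or base content. All 3 printed stretches hold CACGTG. The 3 genes were picked for their different courses, so the letters cannot be related to direction here.

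The question put to the counts was whether glycolytic enzymes and the HIF regulators and targets differed between the groups, and whether both kinds of gene did so alike. In SM2 against NC, 18 of the 38 tested genes were called, 6 higher and 12 lower, which is 47.4% against 22.3% of all genes tested. In SM4 against NC, 15 were called, 1 higher and 14 lower, which is 39.5% against 21.2%. In SM4 against SM2, 10 were called, 1 higher and 9 lower, which is 26.3% against 12.8%. These directions rest on labels that METTL3 goes against. Read with SM4 as the reference, the same calls are 14 higher and 1 lower in NC and 9 higher and 1 lower in SM2. Among all genes the calls were split nearly evenly, with 12% higher and 10.3% lower in SM2, 11% and 10.2% in SM4, and 6.04% and 6.76% in SM4 against SM2.

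The genes of this list are abundant, and calls are more frequent among abundant genes. Among the 4933 genes averaging 50 CPM or more, a background added after the data were seen, 34.1%, 33.5% and 22.5% were called in the 3 comparisons. Their calls leaned lower against NC, with 14.7% higher and 19.4% lower in SM2 and 14.6% and 18.9% in SM4. In SM4 against SM2 they were even, at 11.1% and 11.4%. The 24 list genes above that level gave 13, 13 and 6 calls (54.2%, 54.2% and 25%), so the total in SM4 against SM2 was near its background. Lower calls made up 45.8%, 54.2% and 25% of these 24 genes, above the lower share of that background each time. Cell culture was measured in bulk, so fewer cells of a kind and less RNA per cell cannot be told apart. The median log2 fold change over the 38 genes was -0.026 for SM2 and -0.091 for SM4 relative to NC, and -0.097 for SM4 relative to SM2, where the medians of all genes were -0.00373, -0.00109 and -0.000216. In SM4 against NC 32 of the 38 genes had a value below 0, against 24 in SM2 against NC.

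Counted by libraries that do not overlap between groups, 8 of the 38 genes lay above NC and 13 below it in SM2, where 35.2% of all genes (18% above and 17.2% below) did not overlap. In SM4, 3 lay above NC and 19 below it, where 38.4% of all genes (19.1% above and 19.3% below) did not overlap. Between SM4 and SM2, 5 lay above and 19 below, where 28.3% of all genes (13.7% above and 14.6% below) did not overlap.

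The number of calls in SM4 against SM2 depended on single libraries. It was 6 without SM2 replicate 2, 16 without SM2 replicate 3 and 5 without SM4 replicate 1.

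**Figure D1:**
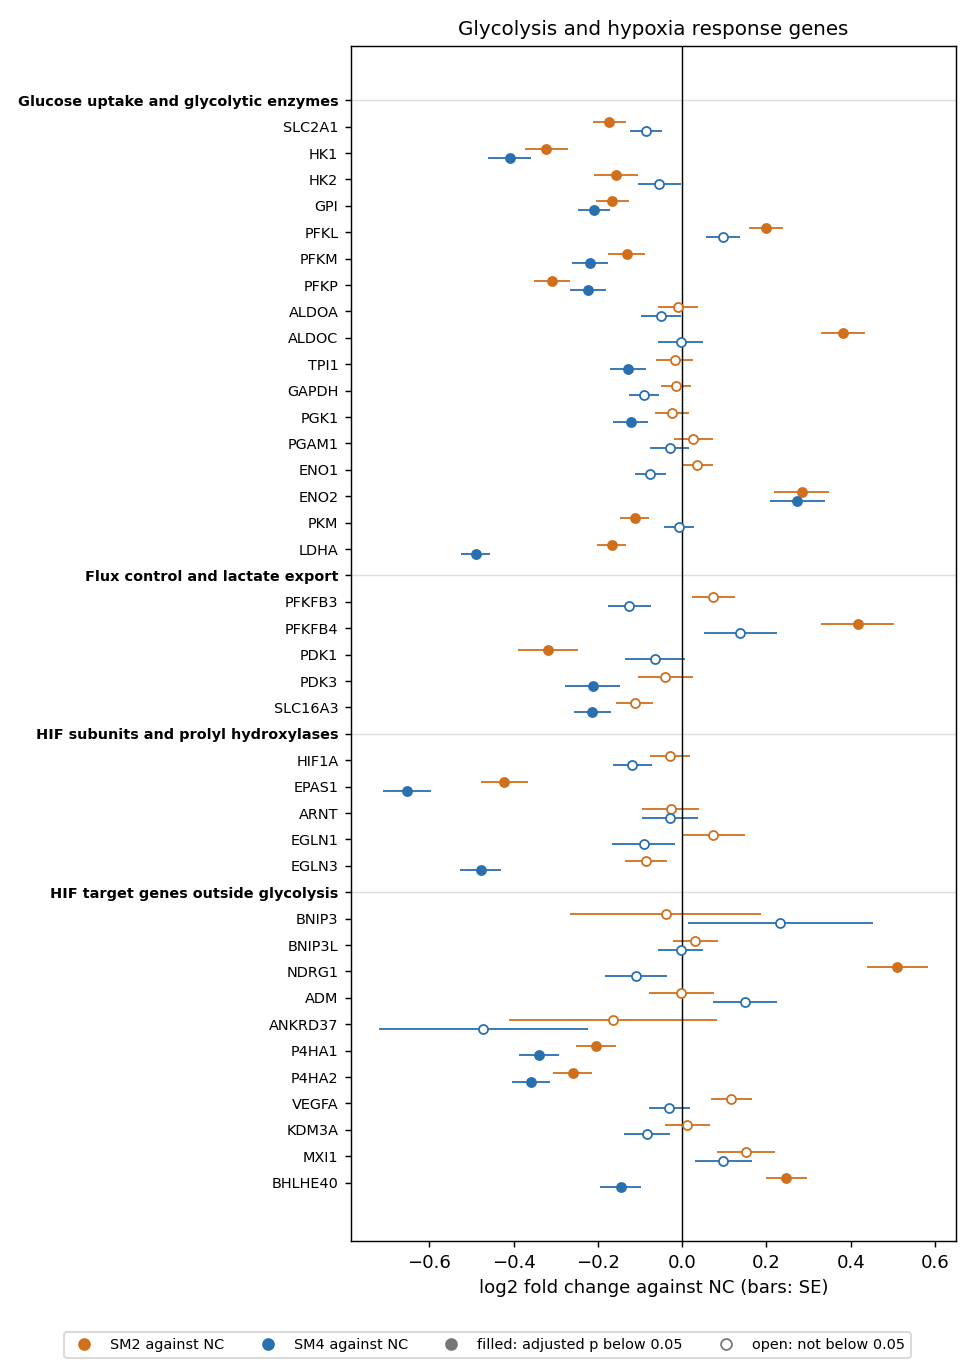
Log2 fold change (x axis, with SE bars) of the 38 tested genes by role in SM2 against NC (orange) and SM4 against NC (blue), from edgeR with 3 libraries a group. Filled points have an adjusted p below 0.05. EPAS1 and LDHA lie farthest to the left in SM4, NDRG1 lies farthest to the right in SM2, and 32 of the 38 blue points lie below 0.

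Per unit of transcript length (TPM, computed from the counts with the summed exon length of each gene), the highest level in NC was that of GAPDH at 3917 ± 49.4 TPM (mean ± SD, n = 3). PKM followed at 2354 ± 38.5, then ENO1 at 2151 ± 10.1 and LDHA at 1836 ± 19.2. Each of these neighbours differed by more than their SDs, and the order rests on the length taken for each gene. HIF1A stood at 457 ± 24.6 TPM and EPAS1 at 192 ± 3.12, and the lowest tested genes were ANKRD37 at 2.46 ± 0.325 and BNIP3 at 1.08 ± 0.171. The 4 genes with the highest levels were thus enzymes of the later steps of glycolysis and of lactate formation, while PGAM1 and ENO2, also enzymes of the later steps, stood at 196 ± 2.99 and 20.5 ± 0.681 TPM.

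Among the 17 tested genes of glucose uptake and glycolysis, 3 rose and 8 fell in SM2 against NC and 1 rose and 7 fell in SM4 against NC. In SM4 against SM2, 3 fell. The called shares were 64.7%, 47.1% and 17.6%, where 22.3%, 21.2% and 12.8% of all genes were called. Glucose enters through the transporter SLC2A1 (GLUT1), which fell in SM2 (log2 fold change -0.17 ± 0.0387 (SE), adjusted p = 0.00247) and was at -0.086 ± 0.0387 (SE), adjusted p = 0.131, in SM4. The hexokinases HK1 and HK2 trap glucose as glucose 6-phosphate. HK1 (ENSG00000156515, chromosome 10, 69269984 to 69401884, plus strand) stood at 135, 129.6 and 123 CPM in the libraries labelled NC, 108, 106 and 96.1 in SM2 and 95.4, 98.4 and 97.9 in SM4. It fell in SM2 (-0.32 ± 0.0501 (SE), adjusted p = 7.11e-05) and in SM4 (-0.41 ± 0.05 (SE), adjusted p = 3.58e-06). Every SM2 and SM4 library lay below every NC library, and the ranges of SM2 and SM4 overlapped. HK2 fell in SM2 (-0.16 ± 0.0516 (SE), adjusted p = 0.0335) and was at -0.054 ± 0.0514 (SE), adjusted p = 0.531, in SM4, and its call in SM2 was lost under 6 alternatives, among them without SM2 replicate 3, whose level of 140.2 CPM was the lowest of the 9. GPI, which isomerises glucose 6-phosphate, fell in SM2 (-0.17 ± 0.0389 (SE), adjusted p = 0.00348) and in SM4 (-0.21 ± 0.0388 (SE), adjusted p = 0.000443).

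Phosphofructokinase commits sugar to glycolysis and has a liver (PFKL), a muscle (PFKM) and a platelet (PFKP) subunit. PFKP (ENSG00000067057, chromosome 10, 3066333 to 3137718, plus strand) stood at 459, 469 and 459 CPM in the libraries labelled NC, 381, 379 and 361 in SM2 and 379, 418 and 392 in SM4. It fell in both SM2 (-0.31 ± 0.043 (SE), adjusted p = 1.91e-05) and SM4 (-0.22 ± 0.0429 (SE), adjusted p = 0.000615), with no library of either group reaching the lowest NC library. PFKM (ENSG00000152556, chromosome 12, 48105139 to 48146404, plus strand) stood at 86.9, 84.7 and 84.6 CPM in the libraries labelled NC, 77.9, 77.9 and 77.99 in SM2 and 72.2, 72.9 and 75.1 in SM4. It fell in SM4 (-0.22 ± 0.0435 (SE), adjusted p = 0.000884) and, by a call that 9 of the alternatives lost, in SM2 (-0.13 ± 0.0436 (SE), adjusted p = 0.0339). PFKM shares exon bases with SENP1 on the opposite strand. PFKL went the other way, rising in SM2 (0.20 ± 0.0412 (SE), adjusted p = 0.0012) and reaching 0.097 ± 0.0411 (SE), adjusted p = 0.106, in SM4. In length-scaled level, PFKP made up 61.2% ± 0.47 of the 3 subunits in NC, 54.3% ± 0.761 in SM2 and 57.4% ± 0.879 in SM4 (SD, n = 3), and PFKL 26.6% ± 0.69, 33.6% ± 0.607 and 31.2% ± 0.476. With the length of the longest transcript instead, PFKP made up 69.5%, 63.4% and 66.3%, in the same order.

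Aldolase splits the sugar. ALDOC, the aldolase best known from brain (ENSG00000109107, chromosome 17, 28573115 to 28576948, minus strand), stood at 32.6, 31.1 and 30.99 CPM in the libraries labelled NC, 40.3, 41.7 and 41.4 in SM2 and 30.8, 32.04 and 31.7 in SM4. All SM2 libraries lay above all others, while NC and SM4 overlapped. ALDOC rose in SM2 against NC (0.38 ± 0.053 (SE), adjusted p = 1.92e-05), was at -0.0035 ± 0.0531 (SE), adjusted p = 0.976, in SM4 against NC, and was lower in SM4 than in SM2 (-0.38 ± 0.0527 (SE), adjusted p = 3.03e-05). ALDOA, the main aldolase of most tissues, was not called in any comparison.

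Of the enzymes after aldolase, the triose phosphate isomerase TPI1 fell in SM4 (-0.13 ± 0.0434 (SE), adjusted p = 0.0391), as did the phosphoglycerate kinase PGK1 (-0.12 ± 0.0407 (SE), adjusted p = 0.0363). The call of TPI1 was lost under 9 of the alternatives and that of PGK1 under 8. For TPI1 these included the one in which the counts of its 4 processed pseudogenes, equal to 11.9% to 13.6% of its count, were added. GAPDH, often used as a reference gene, was at -0.015 ± 0.0358 (SE), adjusted p = 0.818, in SM2 and -0.09 ± 0.0358 (SE), adjusted p = 0.0817, in SM4. The enolase ENO1 was not called against NC and was lower in SM4 than in SM2 (-0.11 ± 0.036 (SE), adjusted p = 0.046), by a call that 10 alternatives lost. PKM, the pyruvate kinase, fell in SM2 (-0.11 ± 0.0347 (SE), adjusted p = 0.0233), a call that 4 alternatives lost, and was at -0.0077 ± 0.0347 (SE), adjusted p = 0.914, in SM4.

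ENO2, the enolase best known from neurons (ENSG00000111674, chromosome 12, 6913745 to 6923698, plus strand), stood at 19.7, 20.3 and 21.2 CPM in the libraries labelled NC, 23.7, 23.9 and 26.9 in SM2 and 25.4, 24.1 and 24.5 in SM4. It rose in SM2 (0.28 ± 0.0658 (SE), adjusted p = 0.0032) and in SM4 (0.27 ± 0.0653 (SE), adjusted p = 0.0042), with all 6 libraries above NC, and was the single gene of the list called higher in SM4. ENO1 nevertheless made up 99.1% of the summed length-scaled level of both enolases in NC.

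LDHA, which reduces pyruvate to lactate (ENSG00000134333, chromosome 11, 18394560 to 18408425, plus strand), stood at 2576, 2601 and 2549 CPM in the libraries labelled NC, 2335, 2244 and 2299 in SM2 and 1788, 1886 and 1826 in SM4. The 3 groups did not overlap, with NC highest and SM4 lowest. LDHA fell in SM2 (-0.17 ± 0.0353 (SE), adjusted p = 0.00143) and in SM4 (-0.49 ± 0.0354 (SE), adjusted p = 2.31e-09), and SM4 was also below SM2 (-0.32 ± 0.0353 (SE), adjusted p = 1.91e-06). These 3 calls held under every alternative tried. LDHA was the most changed glycolytic gene in SM4, and the share of LDHB in the summed level of both subunits was at most 0.0129% in NC. LDHB shares 33.4% of its exon bases with another annotated gene on the same strand, and whether counts there were dropped is not stated, so its level is uncertain.

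**Figure D2:**
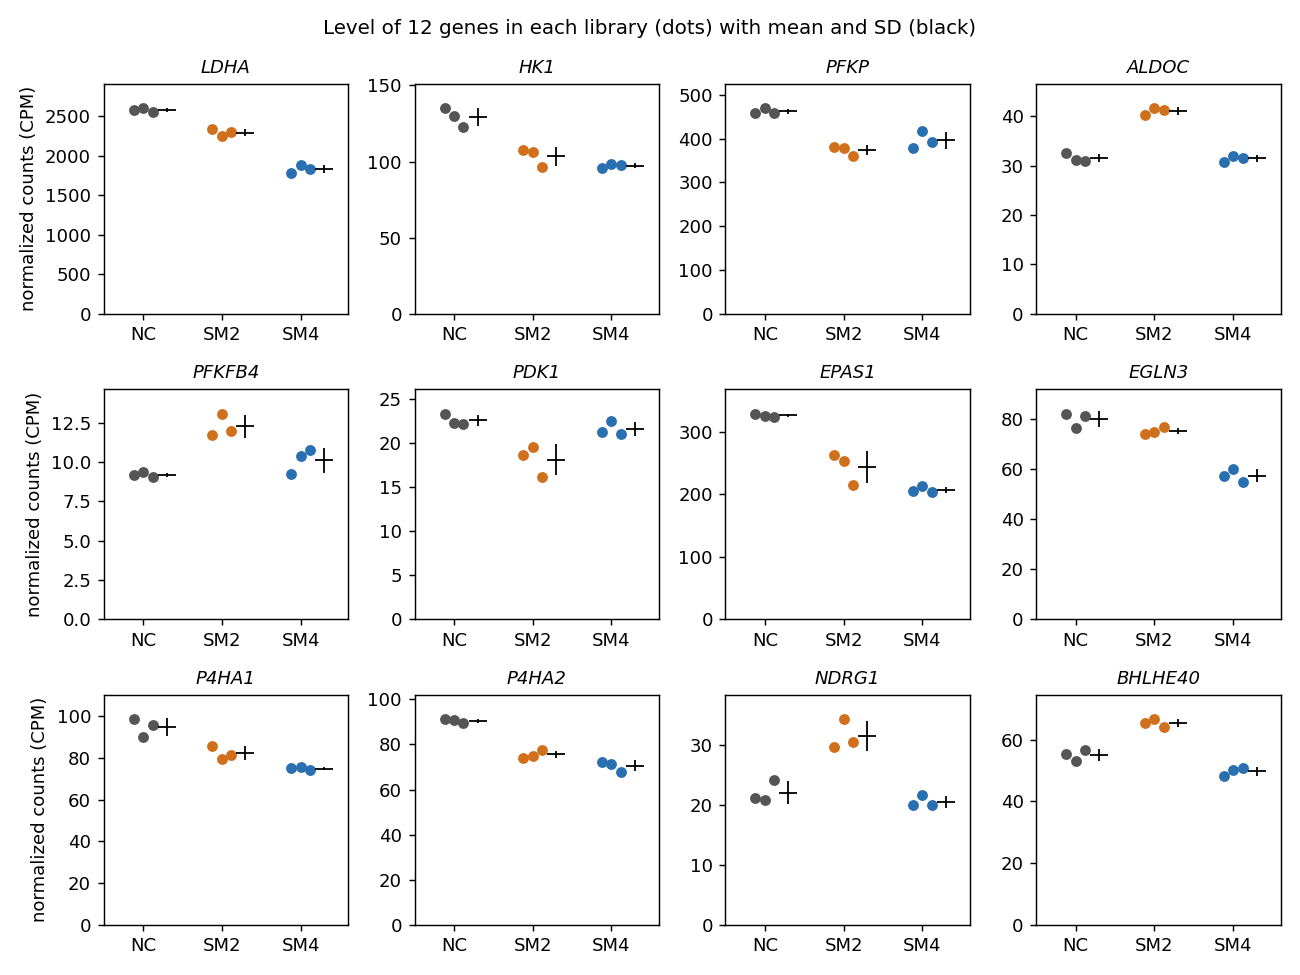
TMM-normalized CPM (y axis, from 0) of 12 genes in each of the 9 libraries (dots, by label), with the mean and SD of each group in black. LDHA and EPAS1 step down from NC to SM2 to SM4, HK1, PFKP, P4HA1 and P4HA2 are lower in both groups, EGLN3 is lower in SM4, and ALDOC, PFKFB4, NDRG1 and BHLHE40 stand highest in SM2.

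Of the 5 genes of flux control and lactate export, 1 rose and 1 fell in SM2 against NC and 2 fell in SM4 against NC. The called share was 40% in each, against 22.3% and 21.2% of all genes. In SM4 against SM2, 1 rose and 2 fell, which is 60% against 12.8% of all genes. PFKFB3 and PFKFB4 make and break fructose 2,6-bisphosphate, the strongest activator of phosphofructokinase. PFKFB4 (ENSG00000114268, chromosome 3, 48517684 to 48562015, minus strand) stood at 9.19, 9.34 and 9.05 CPM in the libraries labelled NC, 11.7, 13.1 and 12.01 in SM2 and 9.24, 10.4 and 10.8 in SM4. It rose in SM2 (0.42 ± 0.0862 (SE), adjusted p = 0.00121), where every library lay above all NC and SM4 libraries, and was at 0.14 ± 0.0863 (SE), adjusted p = 0.298, in SM4. SM4 was below SM2 (-0.28 ± 0.085 (SE), adjusted p = 0.0341), a call lost in 5 alternatives. PFKFB3 was not called against NC (0.074 ± 0.0507 (SE), adjusted p = 0.339, in SM2 and -0.13 ± 0.0507 (SE), adjusted p = 0.0881, in SM4) and was lower in SM4 than in SM2 (-0.20 ± 0.0507 (SE), adjusted p = 0.0111), a call lost in 3 alternatives.

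Pyruvate dehydrogenase kinases switch off the pyruvate dehydrogenase complex, which converts pyruvate inside mitochondria. PDK1 (ENSG00000152256, chromosome 2, 172555373 to 172608669, plus strand) stood at 23.3, 22.2 and 22.2 CPM in the libraries labelled NC, 18.7, 19.5 and 16.2 in SM2 and 21.3, 22.5 and 21.02 in SM4. The SM2 libraries lay below all others, and NC overlapped with SM4. PDK1 fell in SM2 (-0.32 ± 0.0722 (SE), adjusted p = 0.00271), was at -0.064 ± 0.0708 (SE), adjusted p = 0.603, in SM4, and was higher in SM4 than in SM2 (0.25 ± 0.072 (SE), adjusted p = 0.0221). That last call was lost without SM2 replicate 3, which had the lowest level, and without SM4 replicate 1 or 2. PDK3 (ENSG00000067992, chromosome X, 24465244 to 24550466, plus strand) stood at 21.6, 21.7 and 21.7 CPM in the libraries labelled NC, 21.5, 22.4 and 19.4 in SM2 and 18.5, 18.7 and 18.8 in SM4. It fell in SM4 (-0.21 ± 0.0657 (SE), adjusted p = 0.0245), where every library lay below all others, and was at -0.04 ± 0.0659 (SE), adjusted p = 0.737, in SM2. The call in SM4 was lost when any 1 of the NC or SM4 libraries was left out.

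SLC16A3 (MCT4) exports lactate from the cell (ENSG00000141526, chromosome 17, 82217934 to 82261129, plus strand) and stood at 550.0, 543 and 594 CPM in the libraries labelled NC, 509, 526 and 525 in SM2 and 459.6, 495 and 502 in SM4. It fell in SM4 (-0.21 ± 0.0445 (SE), adjusted p = 0.00139) and was at -0.11 ± 0.0445 (SE), adjusted p = 0.0767, in SM2. Both groups lay below the NC libraries without overlap. SLC16A3 shares exon bases with CSNK1D on the opposite strand, whose level was not called in any comparison.

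Of the 5 HIF subunits and prolyl hydroxylases, 1 fell in SM2 against NC, 2 fell in SM4 against NC and 2 fell in SM4 against SM2, and none rose. The called share of 20% in SM2 was near the 22.3% of all genes, and that in SM4 was 40% against 21.2%. In SM4 against SM2 it was 40% against 12.8%. EPAS1 (HIF-2alpha, ENSG00000116016, chromosome 2, 46293667 to 46386697, plus strand) stood at 329, 326 and 324 CPM in the libraries labelled NC, 263, 253 and 214 in SM2 and 205, 213 and 204 in SM4. The 3 groups did not overlap. EPAS1 fell in SM2 (-0.42 ± 0.0559 (SE), adjusted p = 1.08e-05) and had the largest absolute change of the list in SM4 (-0.65 ± 0.056 (SE), adjusted p = 2.77e-08). SM4 was below SM2 (-0.23 ± 0.056 (SE), adjusted p = 0.008), where SM2 replicate 3 lay nearest to SM4, and this call was lost without SM2 replicate 2 or SM4 replicate 1.

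HIF1A, the other alpha subunit, was not called, at -0.029 ± 0.0467 (SE), adjusted p = 0.733, in SM2 and -0.12 ± 0.0467 (SE), adjusted p = 0.08, in SM4, and 4 alternatives called it lower in SM4. As a share of the summed length-scaled level of both alpha subunits, HIF1A made up 70.4% ± 0.77 in NC, 75.8% ± 0.897 in SM2 and 77.5% ± 0.0351 in SM4 (SD, n = 3), and 68.6%, 74.2% and 76.0% with the length of the longest transcript. The partner subunit ARNT was not called in any comparison.

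The prolyl hydroxylase EGLN3 (PHD3, ENSG00000129521, chromosome 14, 33924227 to 34462774, minus strand), itself a gene that HIF induces, stood at 82.3, 76.5 and 81.6 CPM in the libraries labelled NC, 74.3, 75.2 and 76.9 in SM2 and 57.2, 60.2 and 54.96 in SM4. All SM4 libraries lay below all others, and SM2 overlapped with NC. EGLN3 fell in SM4 (-0.48 ± 0.0493 (SE), adjusted p = 3.78e-07), was at -0.086 ± 0.0491 (SE), adjusted p = 0.238, in SM2, and was lower in SM4 than in SM2 (-0.39 ± 0.0495 (SE), adjusted p = 1.11e-05). EGLN1 (PHD2), the main oxygen sensor of this family, was at 0.074 ± 0.0753 (SE), adjusted p = 0.548, in SM2 and -0.091 ± 0.0751 (SE), adjusted p = 0.455, in SM4. It shares 55.8% of its exon bases with another annotated gene on the same strand, so its level is uncertain.

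Of the 11 HIF targets outside glycolysis, 2 rose and 2 fell in SM2 against NC. In SM4, 3 fell against NC and 2 fell against SM2. The called shares were 36.4%, 27.3% and 18.2%, against 22.3%, 21.2% and 12.8% of all genes. Collagen prolyl 4-hydroxylases modify collagen chains so that they fold. P4HA1 (ENSG00000122884, chromosome 10, 73007217 to 73096974, minus strand) stood at 98.6, 90.04 and 96.1 CPM in the libraries labelled NC, 85.8, 79.6 and 81.7 in SM2 and 75.00, 75.8 and 74.1 in SM4. P4HA2 (ENSG00000072682, chromosome 5, 132190147 to 132295315, minus strand) stood at 91.2, 90.7 and 89.6 CPM in the libraries labelled NC, 74.2, 74.9 and 77.5 in SM2 and 72.4, 71.5 and 67.7 in SM4. In both genes every SM2 and SM4 library lay below every NC library. P4HA1 fell in SM2 (-0.20 ± 0.0479 (SE), adjusted p = 0.00357) and in SM4 (-0.34 ± 0.0478 (SE), adjusted p = 2.10e-05). P4HA2 did likewise in SM2 (-0.26 ± 0.0455 (SE), adjusted p = 0.000244) and SM4 (-0.36 ± 0.0454 (SE), adjusted p = 5.51e-06). SM4 against SM2 did not pass the test for either, at -0.14 ± 0.048 (SE), adjusted p = 0.0711, for P4HA1 and -0.099 ± 0.0456 (SE), adjusted p = 0.176, for P4HA2.

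NDRG1, a stress-responsive gene used as a hypoxia marker (ENSG00000104419, chromosome 8, 133237175 to 133302022, minus strand), stood at 21.2, 20.9 and 24.3 CPM in the libraries labelled NC, 29.7, 34.4 and 30.6 in SM2 and 19.96, 21.6 and 19.98 in SM4. All SM2 libraries lay above all others, and NC overlapped with SM4. NDRG1 rose in SM2 (0.51 ± 0.0727 (SE), adjusted p = 2.56e-05), was at -0.11 ± 0.0735 (SE), adjusted p = 0.343, in SM4, and had the largest difference of the list in SM4 against SM2 (-0.62 ± 0.0726 (SE), adjusted p = 4.34e-06). BHLHE40, a transcriptional repressor of the circadian and hypoxia responses (ENSG00000134107, chromosome 3, 4979437 to 4985323, plus strand), stood at 55.3, 52.9 and 56.6 CPM in the libraries labelled NC, 65.2, 66.6 and 63.96 in SM2 and 48.04, 50.3 and 50.7 in SM4. SM2 lay above NC and SM4 below it, with no overlap. BHLHE40 rose in SM2 (0.25 ± 0.0488 (SE), adjusted p = 0.000774) and fell in SM4 (-0.15 ± 0.0489 (SE), adjusted p = 0.038), and SM4 against SM2 gave -0.39 ± 0.0488 (SE), adjusted p = 9.04e-06. The fall in SM4 was lost in 8 alternatives, while the rise in SM2 and the difference between SM4 and SM2 held in all of them.

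The angiogenic factor VEGFA was not called, at 0.12 ± 0.0488 (SE), adjusted p = 0.0972, in SM2, -0.03 ± 0.0487 (SE), adjusted p = 0.735, in SM4 and -0.15 ± 0.0487 (SE), adjusted p = 0.0529, in SM4 against SM2. The mitophagy receptors BNIP3 and BNIP3L, the peptide hormone ADM, ANKRD37, the histone demethylase KDM3A and the MYC antagonist MXI1 were likewise not called in any comparison. With ALDOA, GAPDH, PGAM1, HIF1A, ARNT and EGLN1 these make 13 genes with no call, whose log2 fold changes against NC ran from -0.16 to 0.15 for SM2 and from -0.47 to 0.23 for SM4, and from -0.31 to 0.27 for SM4 relative to SM2. A gene without a call is not shown to be equal between groups. BNIP3 and ANKRD37 stood near 1 CPM, BNIP3 with 43 to 74 counts a library, and 44 BNIP3 pseudogenes held counts equal to 21.9% to 48.6% of its own, so their changes could not be resolved at this depth. ANKRD37 shares 40.3% of its exon bases with UFSP2 on the opposite strand.

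The comparison of glycolytic enzymes with HIF genes was described with the mean log2 difference from NC over the tested genes of each role in each library, with no test. The glycolytic mean was -0.04 ± 0.009 in SM2 and -0.108 ± 0.0333 in SM4 (SD, n = 3). The HIF target mean was 0.035 ± 0.0397 in SM2 and -0.095 ± 0.0099 in SM4. The subunits and hydroxylases stood at -0.101 ± 0.104 and -0.275 ± 0.0407, and flux control and lactate export at 0.0025 ± 0.0764 and -0.096 ± 0.0432. The glycolytic mean minus the HIF target mean was -0.075 ± 0.0447 in SM2 and -0.013 ± 0.0317 in SM4. The gap between glycolytic genes and HIF targets was thus larger than its SD in SM2 and smaller than it in SM4, and all role means of SM4 lay below 0. This SD is over the SM2 or the SM4 libraries and leaves out the spread of NC. NDRG1, at 0.51, had the largest value among the HIF targets in SM2 and so raised their mean most. With medians over the genes the gap was -0.086 in SM2 and -0.0018 in SM4.

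**Figure D3:**
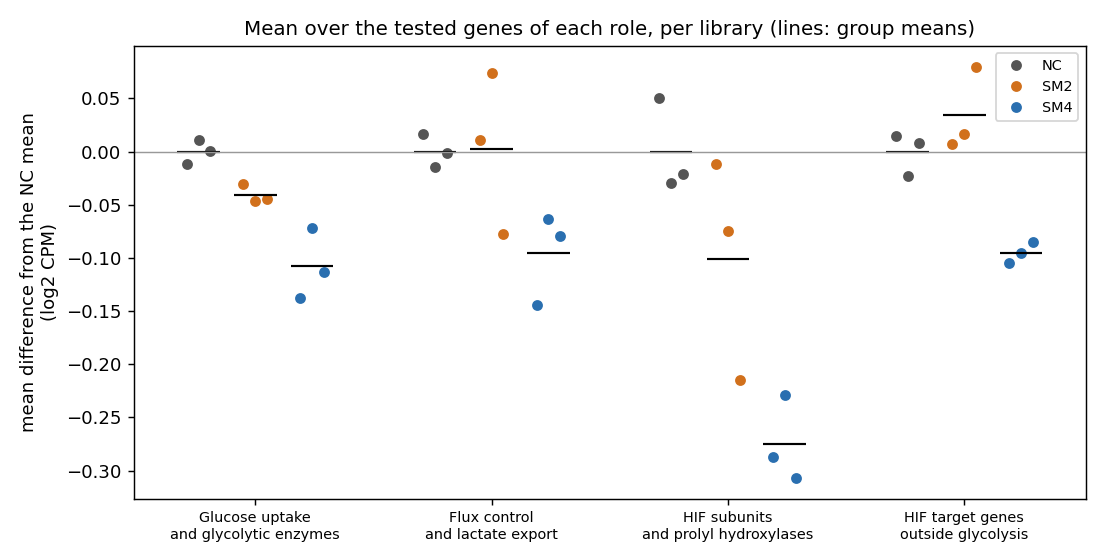
Mean difference from the NC mean in log2 CPM (y axis) over the tested genes of each of the 4 roles, 1 dot for each library and a line at each group mean. The SM4 libraries lie below 0 in every role, and the SM2 libraries lie below 0 for the glycolytic genes and above it for the HIF targets.

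Genes of the same pathways that are not in the list were taken from 5 further lists of 94 genes, of which 84 were tested. Across them 15 rose and 13 fell in SM2 against NC, 12 rose and 23 fell in SM4 against NC, and 4 rose and 18 fell in SM4 against SM2. These are 33.3%, 41.7% and 26.2% of the genes tested, where 22.3%, 21.2% and 12.8% of all genes were called. Of 16 other glycolysis genes, 1 rose and 6 fell in SM2 and 2 rose and 5 fell in SM4 (43.8% called in each). HKDC1, a hexokinase-like gene, stood at 108, 111 and 108 CPM in the libraries labelled NC, 69.9, 70.8 and 64.01 in SM2 and 61.6, 58.9 and 64.9 in SM4. It fell in SM2 (-0.68 ± 0.0508 (SE), adjusted p = 5.37e-09) and SM4 (-0.82 ± 0.0508 (SE), adjusted p = 2.71e-10), and both groups lay well below NC without overlap. PGM2 also fell in both (SM2 -0.37, adjusted p = 9.33e-05, and SM4 -0.26, adjusted p = 0.00313), while GALM, which interconverts the anomers of galactose and glucose, rose in both (SM2 0.23, adjusted p = 0.00471, and SM4 0.33, adjusted p = 0.000106). The glucose transporter SLC2A3 (GLUT3) rose in SM4 (0.46 ± 0.101 (SE), adjusted p = 0.002) and BPGM fell in SM2 (-0.34 ± 0.0784 (SE), adjusted p = 0.00277).

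Of 12 genes of the pyruvate dehydrogenase complex and pyruvate entry, 1 rose and 1 fell in SM2 and 1 rose and 2 fell in SM4. The called shares of 16.7% and 25% were near the 22.3% and 21.2% of all genes. PDK2, a kinase of the same family as PDK1 and PDK3, rose in SM2 (0.51 ± 0.079 (SE), adjusted p = 7.39e-05) and SM4 (0.32 ± 0.0787 (SE), adjusted p = 0.0053). DLAT, the E2 subunit of the complex, fell in SM2 (-0.26 ± 0.0484 (SE), adjusted p = 0.000534). PDP2, a phosphatase of the complex (-0.29 ± 0.0601 (SE), adjusted p = 0.00114), and MPC1, a subunit of the mitochondrial pyruvate carrier (-0.25 ± 0.0679 (SE), adjusted p = 0.0112), fell in SM4. Of 11 genes of the pentose phosphate pathway and gluconeogenesis, 2 rose and 2 fell in SM2 and 2 rose and 3 fell in SM4 (36.4% and 45.5% called). RPIA, the isomerase that makes ribose phosphate, fell in SM2 (-0.22 ± 0.0457 (SE), adjusted p = 0.00133) and SM4 (-0.27 ± 0.0455 (SE), adjusted p = 0.000144). PCK2, the mitochondrial enzyme that makes phosphoenolpyruvate, stood at 92.5, 97.1 and 95.8 CPM in the libraries labelled NC, 123, 129.5 and 137 in SM2 and 128, 134 and 134 in SM4. It rose in SM2 (0.45 ± 0.0473 (SE), adjusted p = 5.62e-07) and SM4 (0.47 ± 0.0471 (SE), adjusted p = 2.34e-07) without overlap with NC, and PGLS rose in SM2 (0.27 ± 0.052 (SE), adjusted p = 0.000552).

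Of 13 other oxygen-sensing genes and HIF partners, 2 rose and 1 fell in SM2 and 3 rose and 1 fell in SM4. The called share of 23.1% in SM2 was near the 22.3% of all genes, and that in SM4 was 30.8% against 21.2%. HIF1AN (FIH), which hydroxylates an asparagine of the alpha subunits, stood at 67.99, 67.5 and 67.2 CPM in the libraries labelled NC, 66.1, 69.1 and 65.1 in SM2 and 81.5, 78.6 and 78.6 in SM4. It rose in SM4 against NC (0.24 ± 0.0453 (SE), adjusted p = 0.000606) and against SM2 (0.25 ± 0.0454 (SE), adjusted p = 0.000594), with NC and SM2 overlapping. ARNT2, a relative of ARNT, stood at 0.0912, 0.460 and 0.290 CPM in the libraries labelled NC, 1.64, 0.998 and 1.15 in SM2 and 1.66, 2.13 and 1.97 in SM4. It rose in SM2 (2.11 ± 0.342 (SE), adjusted p = 0.000111) and SM4 (2.72 ± 0.328 (SE), adjusted p = 3.08e-06) from a low level. CITED2, which competes with HIF for a coactivator, rose in SM2 (0.30 ± 0.0539 (SE), adjusted p = 0.000318) and was lower in SM4 than in SM2 (-0.29 ± 0.0536 (SE), adjusted p = 0.000696). CUL2 fell in SM2 (-0.20 ± 0.0529 (SE), adjusted p = 0.00738) and ELOC fell in SM4 (-0.17 ± 0.0572 (SE), adjusted p = 0.0433), the latter by a call that 7 alternatives lost, both being parts of the ubiquitin ligase that destroys HIF.

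Of 32 other hypoxia response genes, 9 rose and 3 fell in SM2 against NC, 4 rose and 12 fell in SM4 against NC, and 1 rose and 14 fell in SM4 against SM2 (37.5%, 50% and 46.9% called). The shares over all genes were 22.3%, 21.2% and 12.8%. By direction these were 12% higher and 10.3% lower, 11% and 10.2%, and 6.04% and 6.76%. LOXL2, which crosslinks collagen, stood at 72.3, 72.05 and 67.1 CPM in the libraries labelled NC, 47.8, 48.4 and 48.2 in SM2 and 18.9, 19.9 and 18.01 in SM4. The groups did not overlap. It fell in SM2 (-0.55 ± 0.0522 (SE), adjusted p = 1.52e-07) and SM4 (-1.89 ± 0.0552 (SE), adjusted p = 6.70e-15), and SM4 was below SM2 (-1.34 ± 0.0554 (SE), adjusted p = 9.64e-13). With SM4 as the reference, LOXL2 was higher in both NC and SM2. The paper's supplementary list gives LOXL2 as raised with each hairpin, by the sizes of these differences from SM4. LOX, a related enzyme, fell in SM4 (-0.60 ± 0.098 (SE), adjusted p = 0.000121), and ANGPTL4, an inhibitor of lipoprotein lipase, fell in SM4 (-0.70 ± 0.121 (SE), adjusted p = 0.000217). VLDLR, a lipoprotein receptor, stood at 4.97, 4.96 and 4.66 CPM in the libraries labelled NC, 11.05, 10.9 and 10.96 in SM2 and 5.62, 5.84 and 6.06 in SM4. It rose in SM2 (1.17 ± 0.0936 (SE), adjusted p = 1.24e-08), where each library lay above all others, and was lower in SM4 than in SM2 (-0.91 ± 0.0913 (SE), adjusted p = 5.85e-07). The secreted glycoprotein STC1 rose in SM2 (1.07 ± 0.166 (SE), adjusted p = 6.67e-05) and was lower in SM4 than in SM2 (-1.44 ± 0.168 (SE), adjusted p = 4.42e-06). PPFIA4, at about 1 CPM, was called higher in SM2 (0.75 ± 0.267 (SE), adjusted p = 0.0497), a call that 9 alternatives lost.

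**Figure D4:**
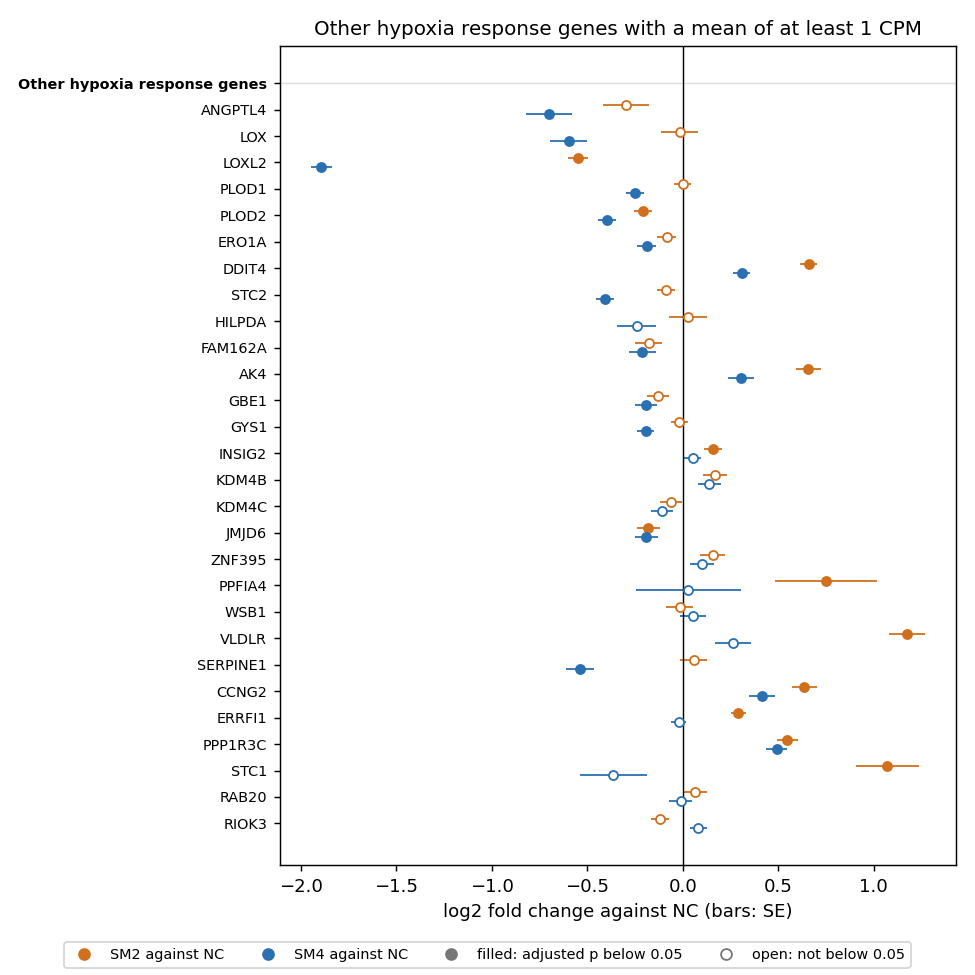
Log2 fold change (x axis, with SE bars) of the other hypoxia response genes whose mean reached 1 CPM, for SM2 against NC (orange) and SM4 against NC (blue), from edgeR with 3 libraries a group. Filled points have an adjusted p below 0.05. LOXL2 lies far below the rest in SM4, and VLDLR and STC1 lie highest in SM2.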

How the data were processed

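The values deposited by the authors are raw counts for each gene and library (9 in all), without normalization. Per the methods and the submitters' processing notes, reads were handled with FastQC or fastp, aligned to hg38 with HISAT2 and counted with Subread (featureCounts), with versions, annotation and strand setting not given in the sources used here. Kit and read layout differ between labels and methods. How reads shared by overlapping genes or pseudogenes were counted is not stated, so levels of such genes are uncertain. Of 60649 identifiers, 60463 matched GENCODE v44 (GRCh38).

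In R 4.3.3, filterByExpr of edgeR 4.0.16 kept 19674 genes and removed 40975. TMM factors lay between 0.989 and 1.01, and the common biological coefficient of variation was 0.0587. All 9 libraries entered 1 quasi-likelihood model with group as its term. Counts carry no molecular identifiers, so counting error is a lower limit. Scripts were tested on simulated data. Alternatives were other normalizations, filters and thresholds, DESeq2 1.42.0 (the study's tool), only the libraries compared, a replicate block, a length correction and leaving out each library.

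Groups follow the labels, which METTL3 levels go against for NC and SM4. The paper's values of METTL3 and LOXL2 take SM4 as the control. The members and lists were chosen with earlier results of these data known. Named with values were members called against NC, the 16 with the largest changes in every library, and from each further list up to 3 called genes with the largest changes in each comparison with NC at a mean of at least 1 CPM. GAPDH, HIF1A, EGLN1, VEGFA, ENO1 and PFKFB3, not called against NC, were named after their values were seen. A gene that this rule would name is counted within its list, and its values are not reported here. Promoter sequences came from RefSeq (GRCh38.p14) and matched 36 of the 39 genes. NDRG1, BNIP3L and VEGFA were not matched.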

Additional observations from a re-analysis of the deposited data

Results flagged for a closer look

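For 10 genes the levels in SM4 and SM2 differed by the edgeR test of SM4 against SM2, with SM4 lower for 9 of them. The NC libraries do not enter this difference, but they share in the estimate of its spread. The 10 genes are 26.3% of those tested in the list, where 12.8% of all genes were called, 6.04% higher and 6.76% lower. At 50 CPM or more the shares were 25% of the list genes and 22.5% of all genes. The log2 fold changes were -0.62 for NDRG1 (adjusted p = 4.34e-06), -0.39 for BHLHE40 (adjusted p = 9.04e-06), -0.39 for EGLN3 (adjusted p = 1.11e-05), -0.38 for ALDOC (adjusted p = 3.03e-05) and -0.32 for LDHA (adjusted p = 1.91e-06), and these 5 were called under every alternative. In these 5 genes the 3 libraries labelled SM4 lay below the 3 labelled SM2. METTL3 goes against the labels of NC and SM4, so these are differences between labelled groups.

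The other 5 lost their call under some alternatives. PFKFB4 was at -0.28 (adjusted p = 0.0341), EPAS1 at -0.23 (adjusted p = 0.008), PFKFB3 at -0.20 (adjusted p = 0.0111) and ENO1 at -0.11 (adjusted p = 0.046). PDK1 alone was higher in SM4, at 0.25 (adjusted p = 0.0221). No group of 4 or more libraries existed, so no single library could be tested for standing apart.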

How the results depend on the processing

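Of 88 gene and comparison pairs named with a call, 69 kept it under every alternative. The glycolytic minus HIF target gap has no test. Among list genes, the calls lost most often were those of PFKM in SM2 against NC, TPI1, PGK1 and BHLHE40 in SM4 against NC, and ENO1 in SM4 against SM2, while BNIP3, ANKRD37 and LDHB were limited by depth. An adjusted p below 0.01 left 2775, 2647 and 1393 genes called for SM2 and SM4 relative to NC and for SM4 relative to SM2, and 6 list genes in the last one with 0 higher. List genes called higher in SM4 against NC numbered 2 with upper-quartile normalization and with only the 6 libraries compared. Those higher in SM4 against SM2 numbered 2 with upper-quartile normalization, a mean of at least 1 CPM, DESeq2 and the replicate block. With the gene length trend removed, 14 list genes were lower in SM4 against SM2.

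The replicate numbers did not pair the libraries, as same-numbered libraries correlated in their deviations by -0.053 to 0.045. With replicate block, 19, 17 and 12 list genes were called in place of 18, 15 and 10.

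Leaving out 1 library at a time gave 5 to 16 list genes called in SM4 against SM2, with 5 to 15 lower and 0 to 1 higher, and 1574 to 2838 genes in all. It gave 11 to 21 list genes in SM4 against NC, with 1 to 2 higher, and 15 to 19 in SM2 against NC. The lowest counts in SM4 against SM2 came without SM4 replicate 1 (5) and SM2 replicate 2 (6) and the highest without SM2 replicate 3 (16). The cause was not tested.

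Uncalled values near 0 changed sign. ALDOC in SM4 against NC was 0.014 with upper-quartile normalization, 0.0030 with a mean of at least 1 CPM, 0.015 with the length trend removed, and -0.018 to 0.020 without 1 library. PKM in SM4 against NC was 0.010 with upper-quartile normalization and -0.028 to 0.019 without 1 library. Without 1 library, ENO2 in SM4 against SM2 was -0.043 to 0.044. In SM2 against NC, HIF1A was -0.071 to 0.020, TPI1 -0.064 to 0.0081, EGLN1 -0.0025 to 0.167 and PDK3 -0.086 to 0.019.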

Other observations

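PCK1, the cytosolic counterpart of PCK2 in gluconeogenesis, lay outside the rule for named genes because its mean was under 1 CPM, and it is given here because its values were seen. It had 2, 0 and 0 counts in the libraries labelled NC, 0, 4 and 0 in SM2 and 100, 103 and 62 in SM4. All SM4 libraries lay above all others (edgeR adjusted p = 3.10e-07 against NC), and the level stayed low, at 1.64, 1.63 and 1.21 CPM in SM4.

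The balance within other enzyme families, in length-scaled level, is given as values without a test. PDK1 made up 55.1% ± 0.797 of PDK1 and PDK3 together in NC, 50.2% ± 0.635 in SM2 and 57.6% ± 0.894 in SM4 (SD, n = 3). ALDOA made up 72.7% ± 1.31 of ALDOA and ALDOC in NC, 67.0% ± 1.01 in SM2 and 72.0% ± 0.638 in SM4, where 42.8% of the exon bases of ALDOA lie in another annotated gene on the same strand. With the length of the longest transcript in place of the summed exon length, the share of PDK1 was 48.5%, 43.7% and 51.0%.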
